A study of Mus musculus with 10 samples.

Results

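Interferon-stimulated genes were followed across 10 arrays of mouse calf muscle. They were a named list of 9 genes: Usp18, Irf7, Trim30a, Isg15, Ifit1, Ifit3, Oasl2, Rsad2 and Bst2. A gene was measured by its probe set, the group of array probes read as 1 signal, where the platform annotation gave that probe set a single symbol. This held for 8 of the 9 members, out of 19938 genes in all, and each of the 8 had 1 probe set. Isg15 shared its probe set with a second symbol and is given no value. Of the 8, Usp18, Irf7, Trim30a, Oasl2, Rsad2 and Bst2 had a mean signal above the filter on low values, which kept 11963 genes. Ifit1 and Ifit3 fell just under it, and their estimates come from a fit without the filter.

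The RNA came from gastrocnemius of male C57BL/6 mice, and every array held a pool of 5 animals. F0 EX animals ran voluntarily and F0 SED animals were sedentary, both 28 weeks old, with 1 pool each. The descendants of like-exposed F0 pairs, 8 weeks old, made up the groups F1 EX and F1 SED and, a generation on, F2 EX and F2 SED, each with 2 pools. All descendants were sedentary themselves, F2 came from littermate matings, and EX and SED name their ancestry. Values are log2 signals, so that a difference of 1 is a factor of 2, and the labels do not say that the pools of a group hold different animals. The p-values therefore rest on how far such pools differ, and that spread may be technical.

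Interferons are signal proteins that cells release when they sense foreign or misplaced nucleic acid. Type I interferons act through their receptor and JAK kinases on a transcription factor complex that binds an element in the promoters of many of the genes described here. Interferon gamma, made mainly by lymphocytes, has its own receptor and acts on a partly different set, which includes guanylate-binding proteins, immunity-related GTPases and antigen presentation genes.

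The promoter element common to many of these genes was looked for first. The search was for GAAA, any 2 bases and GAAA again, on either strand, from 250 bases before to 50 bases after each start in RefSeq's GRCm38.p6 promoters. Overlapping matches were counted singly. Of the 9 members 8 had a promoter there, and 6 of these held the motif, against 3.44% of all 32851 promoters. Isg15 held 3 overlapping matches, Bst2 held 2 overlapping ones, Ifit1 and Ifit3 held 2 separate ones each, and Rsad2 and Trim30a held 1. In Oasl2 and Irf7 these letters were not in the window. With a C required after the motif, 5 of the 8 members held it, against 0.819% of all promoters. Of 34 other type I interferon-stimulated genes with a promoter, 14 held the shorter form. The stretches below belong to the 5 measured members with a match, are written 5′ to 3′ on the strand of the gene, and have the matched bases in capitals. Where the capitals begin with TTTC the motif lies on the opposite strand.
Ifit3, chr19:34583348-34583441 (+): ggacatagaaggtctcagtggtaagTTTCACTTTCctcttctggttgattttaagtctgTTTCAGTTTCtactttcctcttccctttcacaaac
Ifit1, chr19:34640760-34640838 (+): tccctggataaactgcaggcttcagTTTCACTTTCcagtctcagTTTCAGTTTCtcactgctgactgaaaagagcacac
Bst2, chr8:71537562-71537627 (-): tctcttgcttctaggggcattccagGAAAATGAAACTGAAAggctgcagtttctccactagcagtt
Rsad2, chr12:26456538-26456597 (-): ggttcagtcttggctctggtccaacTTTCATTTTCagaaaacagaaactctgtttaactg
Trim30a, chr7:104465195-104465254 (-): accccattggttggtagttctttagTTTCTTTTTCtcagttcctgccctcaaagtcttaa
In Ifit3 the matches lie between 156 and 113 bases before the start, in Ifit1 between 104 and 76, in Bst2 between 130 and 115, in Rsad2 between 120 and 111, and in Trim30a between 36 and 27. A second Trim30a start in the table also had 1 match. A match describes letters and is no binding site by itself.

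Arrays differed in ways that touch the members' values. F0 SED and F1 EX pool 1 stood apart from the rest, with a median Pearson r with the other arrays, across genes, of 0.974 and 0.979, against 0.986 to 0.993 for the other 8 arrays. Their lower quartile was 2.48 on the log2 scale, against 2.28 to 2.32 elsewhere. Muscle markers were high in every pool, Ckm between 12.7 and 13.3 and Acta1 between 13.1 and 13.5.

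Among the effectors, Ifit1 and Ifit3 encode proteins with tetratricopeptide repeats that bind viral RNA or the proteins around it. Ifit1 had a log2 signal of 2.61 in the F0 EX pool and 3.40 in the F0 SED pool, 3.39 and 3.01 in F1 EX, 3.03 and 3.39 in F1 SED, 3.13 and 3.60 in F2 EX and 3.08 and 2.98 in F2 SED. Its F0 EX pool was the lowest of the 10, and EX and SED pools overlapped in F1 and not in F2. Ifit3 had 2.90 in F0 EX and 2.99 in F0 SED, 3.10 and 3.07 in F1 EX, 2.98 and 4.02 in F1 SED, 2.94 and 2.94 in F2 EX and 2.91 and 2.67 in F2 SED. A single pool, F1 SED pool 2, stood above all the others, which spanned 2.67 to 3.10. Ifit3b, a close copy of Ifit3 with a probe set of its own, had 2.67 in that pool and 2.01 to 2.85 in the other 9. It was not highest there, the 2.85 being that of F1 EX pool 1. Ifit3b was also under the filter. In F1 SED pool 2 it was 0.38 above the mean of the other 7 descendant pools.

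Rsad2 encodes viperin, a radical SAM enzyme that makes a chain-terminating nucleotide. Its log2 signal was 4.17 in F0 EX and 3.53 in F0 SED, 4.18 and 3.76 in F1 EX, 4.02 and 4.33 in F1 SED, 4.54 and 4.21 in F2 EX and 4.23 and 4.24 in F2 SED. The F0 SED pool was lowest and F2 EX pool 1 highest, and EX and SED overlapped in both descendant generations. Oasl2 belongs to the oligoadenylate synthetase-like proteins. It had 4.16 in F0 EX and 4.80 in F0 SED, 5.05 and 4.65 in F1 EX, 4.67 and 5.39 in F1 SED, 4.48 and 4.88 in F2 EX and 4.38 and 4.57 in F2 SED. F1 SED pool 2 was again the highest, and F0 EX the lowest.

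Bst2 encodes tetherin, which holds budding virus particles at the cell surface. Its log2 signal was 5.30 in F0 EX and 5.29 in F0 SED, 5.98 and 5.42 in F1 EX, 5.59 and 5.98 in F1 SED, 5.52 and 5.27 in F2 EX and 5.41 and 5.61 in F2 SED. F1 EX pool 1 and F1 SED pool 2 were level at the top, 1 pool from each ancestry. Trim30a encodes a tripartite motif protein that restrains inflammatory signalling in mouse cells. It had 4.54 in F0 EX and 4.30 in F0 SED, 4.003 and 4.28 in F1 EX, 4.68 and 4.91 in F1 SED, 4.54 and 4.81 in F2 EX and 4.71 and 4.62 in F2 SED. The F1 EX pools were the lowest of the 10, and the F1 SED pools lay above them without overlap.

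The remaining members regulate the response. Irf7 encodes the transcription factor that amplifies type I interferon production. Its log2 signal was 3.37 in F0 EX and 3.49 in F0 SED, 3.57 and 3.68 in F1 EX, 3.93 and 4.20 in F1 SED, 3.90 and 3.89 in F2 EX and 3.85 and 3.76 in F2 SED. Both F0 pools lay under all descendants, and within F1 the EX pools lay under the SED pools. Usp18 encodes the protease that removes ISG15 from its targets and dampens signalling at the type I receptor. It had 3.87 in F0 EX and 3.69 in F0 SED, 3.18 and 3.37 in F1 EX, 3.75 and 3.86 in F1 SED, 3.57 and 3.73 in F2 EX and 3.42 and 3.59 in F2 SED. The F1 EX pools were the lowest of the 10.

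**Figure D1:**
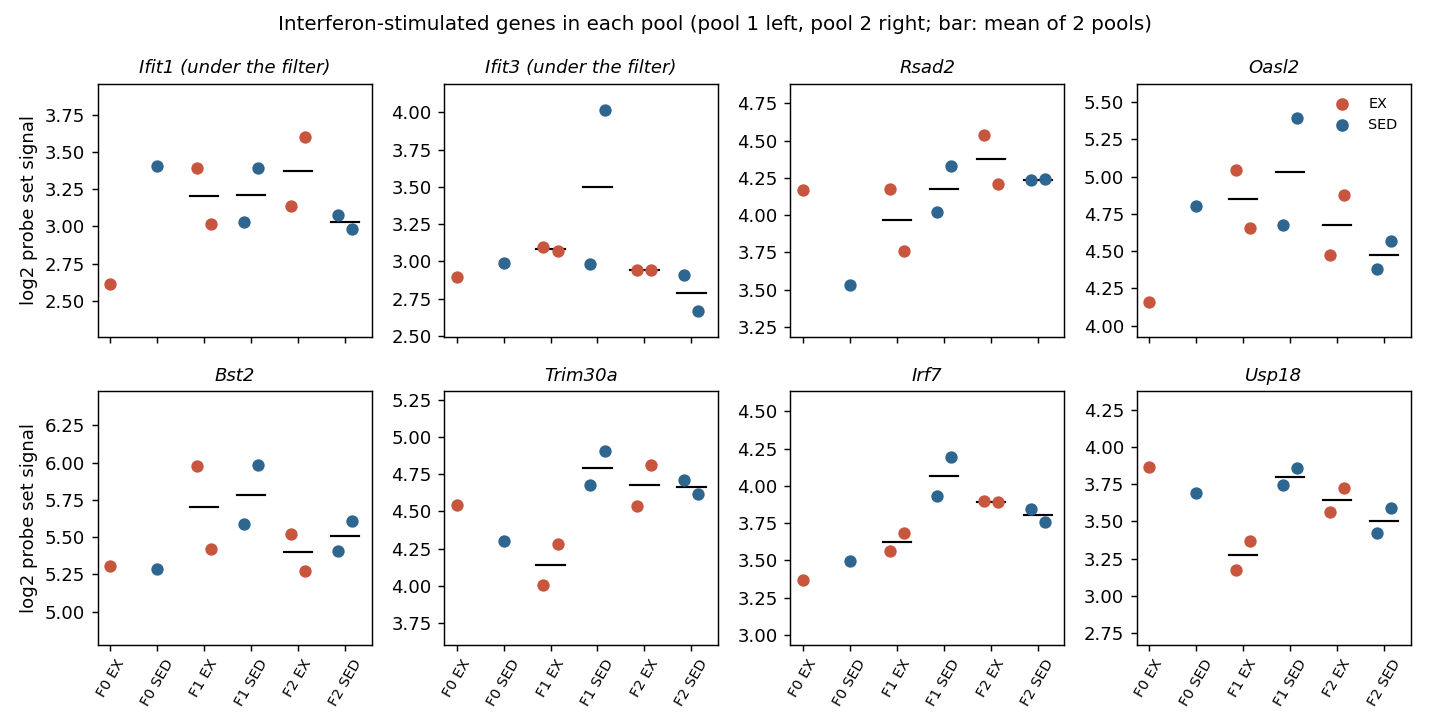
Log2 probe set signal (vertical axes, each spanning the same width in log2 units) of the 8 measured members in each of the 10 pools, by group along the horizontal axis, with EX in red, SED in blue and a bar at the mean of 2 pools. Ifit3 and Oasl2 have a single high point in F1 SED (4.02 and 5.39), and Trim30a, Irf7 and Usp18 have both F1 EX pools under both F1 SED pools.

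The members moved together most plainly in 1 pool. F1 SED pool 2 had the highest signal of the 10 pools for 5 of the 8 members (Irf7, Trim30a, Ifit3, Oasl2 and Bst2). Among the 11963 genes, 4.74% were highest there. Bst2 was highest there by only 0.0064, and Ifit3, under the filter, is not among the 11963. All 8 members were higher in F1 SED pool 2 than in the mean of the other 7 descendant pools. Of the 11963 genes, 4951 were. The members' median excess was 0.39, and the median over all genes was -0.03. Ifit3 was 1.07 higher (2.11-fold), Oasl2 0.72 higher (1.65-fold) and Bst2 0.44 higher, down to Rsad2 at 0.16 higher. These are values of a single pool and carry no test. RNA of a whole muscle does not tell more cells of a type from more RNA per cell.

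The same pool was set apart further by genes of the interferon gamma response. Of that list, 21 genes passed the filter. All 21 were higher in F1 SED pool 2 than in the mean of the other 7 descendant pools, by a median of 1.02. Above all the other 9 pools were 16 of them. Among all 11963 genes, 4951 were above that mean and 566 were above all the other 9 pools. Iigp1, an immunity-related GTPase, had a log2 signal of 9.25 in F1 SED pool 2, against 3.92 to 4.62 in the other 9, and was 32.1-fold above the other descendants. Irgm1, of the same family, had 7.84 against 3.98 to 5.38 and was 7.04-fold higher. Cxcl9, a chemokine that draws T cells, had 5.72 against 2.95 to 3.79. Guanylate-binding proteins followed, with Gbp7 at 8.64 against 5.97 to 7.08, and Gbp3 at 5.47 against 3.46 to 4.24.

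The antigen presentation genes of that list varied more. Psmb8, Psmb10, Tap2, Tapbp and Cd74, which serve antigen processing or loading, were the 5 genes of the 21 that were not above all the other 9 pools. Tap1, a subunit of the peptide transporter, had a log2 signal of 5.98 in F1 SED pool 2, against 4.55 to 5.00 in the other 9 pools. B2m, the light chain of class I molecules, had 10.36 against 8.74 to 9.78, and H2-Ab1, a class II chain, had 8.02 against 6.61 to 7.67. Irf1, the transcription factor induced by interferon gamma, had 6.03 against 4.59 to 5.15. Cd274, which encodes the checkpoint ligand PD-L1 and is on no list, had 6.41 against 3.81 to 4.47. The genes named for F1 SED pool 2 were mostly chosen after their values were seen. Over all 19938 genes, 5 exceeded the other 9 pools by 2 or more in F1 SED pool 2, 1 did so in F2 SED pool 2 and 0 in each of the other 8 pools. F1 SED pool 2 was level with F0 SED at 1 or more and did not lead at 0.5 or more. By 1 or more 13 genes exceeded the rest in F1 SED pool 2 and 13 in F0 SED. F2 EX pool 1 had 9 such genes and F1 EX pool 1 had 7. By 0.5 or more 28 did in F1 SED pool 2, with 212 for F0 SED and 204 for F1 EX pool 1. F0 SED and F1 EX pool 1 are the arrays that stood apart.

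**Figure D2:**
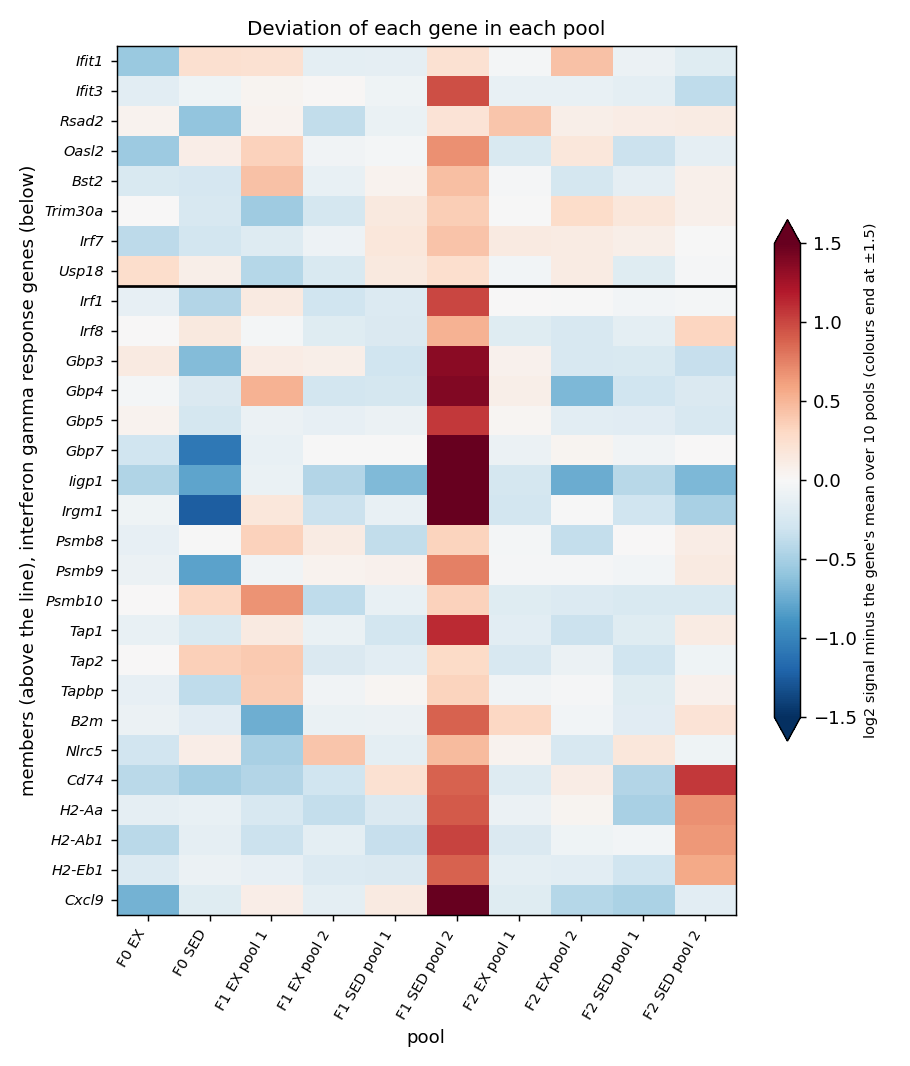
Deviation of each gene's log2 signal from its mean over 10 pools (colour scale, ending at 1.5 either way), for the 8 measured members above the line and 21 interferon gamma response genes below it, with pools along the horizontal axis. The column of F1 SED pool 2 is red throughout, and several class II genes are also red in F2 SED pool 2.

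Other parts of the interferon system differed less in F1 SED pool 2. Of 30 other type I interferon-stimulated genes, 12 were highest there and their median excess over the other descendants was 0.22, with Parp14 highest at 1.16. Among 11 receptors and signal transducers the median was -0.04, although Irf9 was 0.65 higher and Stat2 0.55 higher, both subunits of the complex that type I interferon activates. Among 8 nucleic acid sensors and adaptors it was -0.02. Ifng itself had a log2 signal of 2.56 in F1 SED pool 2 and 2.40 to 3.02 in the other 9 pools, and Ifnb1 had 2.30 against 1.94 to 2.59, both under the filter.

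Markers of other cell types were read in the same pool. Of 12 macrophage and monocyte markers, 4 were highest in F1 SED pool 2 (Adgre1, Lyz1, C1qa and Itgam), against 4.74% of all genes. The median excess of the 12 over the mean of the other descendants was 0.13, with 9 above that mean. Csf1r, C1qc and Fcgr3 lay under it, at -0.01, -0.03 and -0.04. The summed linear signal of the 12 was 847 in F1 SED pool 2, against 560 to 876 in the other 9 pools. F2 SED pool 2 had the 876. Among list genes under the filter, Ccr2 had 3.50 in F1 SED pool 2, against 2.52 to 2.95 in the other 9. Cd14 had 2.99 against 2.23 to 2.96, and Aif1 had 3.20 against 2.67 to 3.74. Of 11 lymphocyte markers with a probe set, 2 passed the filter. Ptprc, carried by all leukocytes, had 4.34 in F1 SED pool 2, against 3.22 to 4.98 in the other 9, and Cd3e had 3.47 against 3.10 to 3.69. Skeletal muscle markers had a median difference of -0.02. The part of immune cells in the members' values was not tested.

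**Figure D3:**
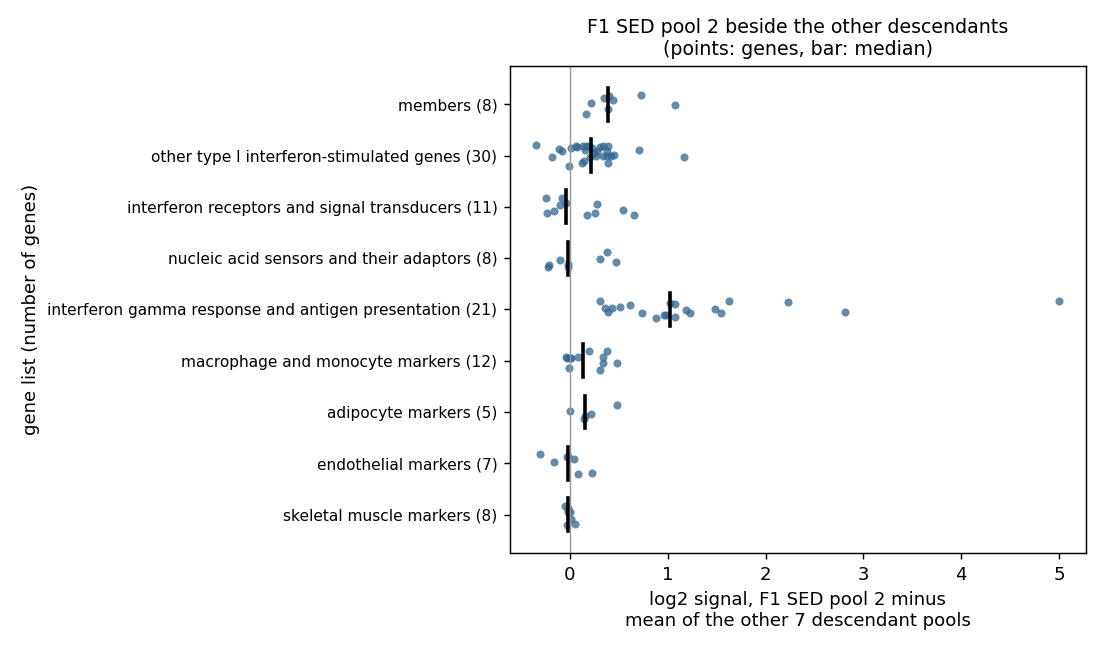
Log2 signal in F1 SED pool 2 minus the mean of the other 7 descendant pools (horizontal axis), a point for each gene and a bar at each list's median, for 9 lists down the page with their number of genes. The interferon gamma response list has its median at 1.02 and Iigp1 at 5.00, the members have theirs at 0.39, and muscle markers lie close to 0.

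The first comparison by ancestry was F1 EX against F1 SED, which asks whether exercise of the parents is seen in sedentary offspring. All 8 measured members had lower means in F1 EX, with a median difference of -0.32 over the 6 that were tested, and 51.1% of all genes lay below 0. Trim30a had the largest difference, averaging 4.14 ± 0.20 in F1 EX and 4.79 ± 0.16 in F1 SED (SD, n = 2 each), a difference of -0.65 with a standard error of 0.154. Usp18 averaged 3.27 ± 0.13 in F1 EX and 3.80 ± 0.08 in F1 SED, a difference of -0.53 with a standard error of 0.134. Irf7 averaged 3.62 ± 0.08 in F1 EX and 4.06 ± 0.19 in F1 SED, a difference of -0.44 with a standard error of 0.133.

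These differences did not pass the threshold. With limma and Benjamini-Hochberg adjustment over 11963 genes the adjusted p was 0.804 for Trim30a, Usp18 and Irf7, and 0 of 6 members and 0% of all genes were called at adjusted p 0.05. At an unadjusted p under 0.05 there were 3 of 6 members, against 4.88% of all genes, and for these 3 the groups did not overlap with EX lower, which 16.6% of all genes showed. Ifit3 was 0.42 lower and Rsad2, Oasl2 and Bst2 were 0.21, 0.18 and 0.08 lower in F1 EX, each with overlapping pools, and Ifit1 differed by -0.01.

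The differences rested on the F1 SED pool described above to an extent that varied by gene. Without F1 SED pool 2 the median difference of the 6 tested members was -0.18, and without F1 SED pool 1 it was -0.56. Trim30a was at -0.54, Usp18 at -0.47 and Irf7 at -0.31 without F1 SED pool 2, whereas Oasl2 was at 0.18, Bst2 at 0.11 and Ifit3 at 0.10, which is the other direction. Without F1 EX pool 2, a fit in which the remaining F1 EX pool is assumed to vary like the other groups, limma called Trim30a (-0.79, adjusted p 0.0296) and Usp18 (-0.62, adjusted p 0.0352), among 1046 of 11963 genes called. The pool that remains there is F1 EX pool 1, which stood apart from the other arrays.

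In F1 the related lists did not all lean one way. Of 30 other type I interferon-stimulated genes 21 had lower means in F1 EX, with a median of -0.14, and of 21 interferon gamma response genes 18 had lower means, with a median of -0.48. Without F1 SED pool 2 these medians were 0.01 and 0.11. Of 8 nucleic acid sensors and adaptors 6 had lower means in F1 EX, with a median of -0.13, and of 11 receptors and signal transducers 6 did, with a median of -0.05. The 3 interferon ligands that passed the filter had higher means in F1 EX, with a median of 0.27, and Oasl1, a relative of Oasl2, was 0.08 higher. No gene of these lists was called by limma. Adipocyte markers were lower in F1 EX in 5 of 5 cases with a median of -0.78, macrophage markers in 8 of 12 with a median of -0.11, and their part in the members' difference was not tested.

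In F2 the same comparison gave small differences. Of the 6 tested members 5 had higher means in F2 EX, as did 60.7% of all genes, with a median difference of 0.11 (0.04 without F2 EX pool 2), and limma with Benjamini-Hochberg adjustment called 0 of 6 members and 0% of all genes, with an adjusted p of 1.00 for each. At an unadjusted p under 0.05 there were 0 of 6 members and 4.45% of all genes. Irf7 averaged 3.89 ± 0.0039 in F2 EX and 3.80 ± 0.06 in F2 SED (SD, n = 2 each). Trim30a averaged 4.67 ± 0.19 in F2 EX and 4.66 ± 0.07 in F2 SED, and Usp18 3.65 ± 0.11 in F2 EX and 3.51 ± 0.12 in F2 SED. Irf7, Ifit1 and Ifit3 had both EX pools above both SED pools, as had 25.8% of the 11963 genes above the filter, which do not include Ifit1 and Ifit3.

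The change of the ancestry difference between generations was tested directly. F2 minus F1, it was 0.67 for Usp18, 0.66 for Trim30a and 0.53 for Irf7, with standard errors of 0.190, 0.218 and 0.188. The unadjusted p was 0.00599, 0.0130 and 0.0186, and the limma adjusted p was 0.919 for each, so that 0 of 6 members were called, as were 0% of all genes. The estimate was above 0 for 5 of 6 members and 56.2% of all genes, and the members' median of 0.46 was 0.29 without F1 SED pool 2 and 0.69 without F1 SED pool 1. At an unadjusted p under 0.05 there were 3 of 6 members and 4.34% of all genes. This test uses the same F1 pools as the F1 comparison and is no second observation of them.

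Over both descendant generations, ancestry gave a median of -0.14 over the 6 tested members, with 5 below 0, as 46.7% of all genes were. The median was -0.04 without F1 SED pool 2, with 4 below 0, and -0.07 without F1 EX pool 2. Trim30a, at 4.41 ± 0.35 in EX and 4.73 ± 0.13 in SED (SD, n = 4 each), differed by -0.32 with an unadjusted p of 0.0517 and a limma adjusted p of 0.888. With limma 0 of 6 members and 0% of all genes were called, and 0 members had an unadjusted p under 0.05, against 4.99% of all genes.

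**Figure D4:**
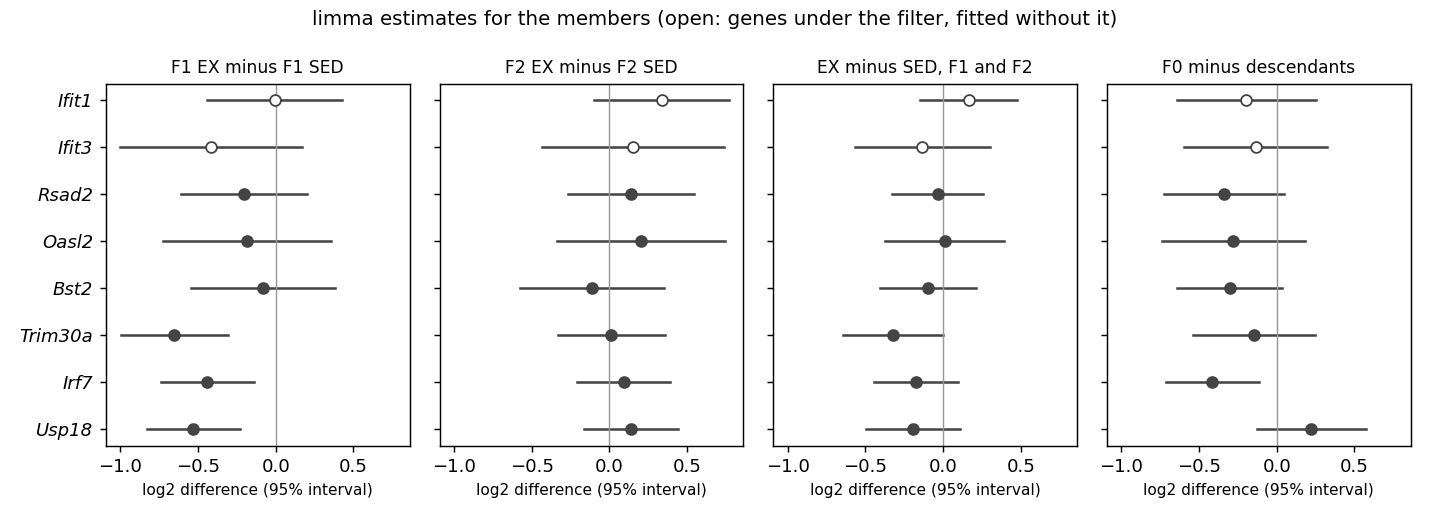
limma estimates of log2 difference with 95% intervals (horizontal axes) for the 8 measured members in 4 comparisons, open circles marking Ifit1 and Ifit3, which were fitted without the filter. In F1 all points lie at or left of 0, with Trim30a at -0.65, and in F2 they lie between -0.11 and 0.34.

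Between generations of descendants the members differed in both directions. F2 against F1 gave a median of 0.02 over the 6 tested members, 4 of them above 0, and leaving out single pools moved it between -0.07 (without F1 EX pool 1) and 0.12 (without F1 SED pool 2). Of the 6 tested members 0 were called by limma with Benjamini-Hochberg adjustment (0% of all genes), 0 having an unadjusted p under 0.05, against 4.25% of all genes. Rsad2 averaged 4.31 ± 0.15 in F2 and 4.07 ± 0.24 in F1, and Trim30a 4.67 ± 0.12 in F2 and 4.47 ± 0.40 in F1, both higher in F2. Oasl2 averaged 4.58 ± 0.22 in F2 and 4.94 ± 0.35 in F1, and Bst2 5.45 ± 0.15 in F2 pools and 5.74 ± 0.28 in F1 pools (SD, n = 4 each). Ifit3 averaged 2.86 ± 0.13 in F2 and 3.29 ± 0.49 in F1. Its F2 pools all lay under its F1 pools, narrowly, with the highest F2 pool at 2.94 and the lowest F1 pool at 2.98. Of the 11963 genes above the filter, 1.11% did so, and Ifit3 is not among these genes. F1 SED pool 2 is the highest F1 value of Oasl2, Bst2 and Ifit3, and also of Rsad2, Trim30a, Irf7 and Usp18. With single pools left out, Oasl2 ranged from -0.48 to -0.18, Bst2 from -0.40 to -0.18 and Ifit3 from -0.58 to -0.16. Rsad2 ranged from 0.12 to 0.33 and Trim30a from 0.079 to 0.31.

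F0 pools were set against descendants, a comparison in which generation, age and, for F0 EX, running cannot be told apart. Irf7 averaged 3.43 ± 0.09 in F0 (SD, n = 2) and 3.85 ± 0.19 in descendants (SD, n = 8). The F0 SD is over 1 EX and 1 SED pool, and the descendant SD is over all F1 and F2 groups, so neither is a replicate spread. The difference of Irf7 was -0.41 with a standard error of 0.136. Both F0 pools lay under all 8 descendant pools, as 6.65% of all genes did. The unadjusted p was 0.0104, under 0.05 as for 17.6% of all genes, and the limma adjusted p was 0.145. Of the 6 tested members 5 had lower means in F0, as had 54.9% of all genes, with a median of -0.29, Usp18 being 0.22 higher, and 0 of 6 were called, against 2.33% of all genes. The median was -0.12 without F0 SED and -0.39 without F0 EX. Among the related lists limma called Sting1, the adaptor for cytosolic DNA sensing, 0.83 lower in F0 (adjusted p 0.0213). Sting1 had 4.89 in F0 EX and 4.29 in F0 SED, an array that stood apart, against 5.08 to 5.61 in descendants. Macrophage markers had lower means in F0 in 11 of 12 cases with a median of -0.27. Endothelial markers did in 7 of 7 with a median of -0.46, Pecam1 and Cdh5 being called. Pecam1 had 6.78 in F0 EX and 6.18 in F0 SED, and Cdh5 had 7.01 in F0 EX and 7.19 in F0 SED. The part of these cell types in the members' values was not tested.

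Exercise itself was measured in F0 with 1 pool against 1, so that no difference has a replicate check. Rsad2 was 0.64 higher in F0 EX than in F0 SED, whereas Oasl2 was 0.64 lower and Ifit1 0.79 lower. Trim30a was 0.24 higher, Usp18 0.18 higher and Bst2 0.01 higher, and Irf7 and Ifit3 were 0.12 and 0.09 lower. A difference of 0.5 or more was reached upward by 1 and downward by 2 of the 8, against 15.3% upward and 5.38% downward among the 11963 genes. Ifit1 and Ifit3, under the filter, are not among the 11963. F0 SED is an array that stood apart.

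Likeness over the 10 pools was described for the mean deviation of the 6 members that passed the filter. The 10 genes with the highest Pearson r were Dock10 (0.92), Tlcd2 (0.89), Irf1 (0.89), Gbp7 (0.88), Dap (0.87), Lcp2 (0.87), Soga1 (0.87), Cd274 (0.87), Svbp (0.87) and Irgm1 (0.86), each over 10 pools that share F1 SED pool 2 as a high point. Each member's r with the mean of the other 5 lay between 0.20 for Usp18 and 0.80 for Irf7, so that Usp18 followed the others least.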

How the data were processed

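The table that the authors deposited holds log2 signals for 35557 probe sets on 10 arrays, between 0.966 and 14.2, and the log2 scale was inferred from these limits. Affymetrix Expression Console is the program that the submitters' processing notes list. Its version and its background correction and normalization, and any genome build, were not given in the sources used here. Signals entered the fits unchanged and without detection calls, and precision is limited by the number of arrays. Per the labels' protocols, RNA was diluted to 98 ng/µl and pooled, 5 animals per array.

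In GEO's platform annotation 21789 probe sets carried a single symbol, 1621 carried several and 12147 carried no symbol. Each gene was read from its probe set of highest mean, and genes at or above the 40th percentile of the mean (3.23) were tested. Differences were fitted with limma 3.58.1 in R 4.3.3 and Benjamini-Hochberg adjustment over 11963 genes, at a threshold of 0.05. A model of group means in the 8 descendant arrays gave the F1 effect, the F2 effect and their contrast. Additive models gave ancestry and generation on those arrays, and F0 against descendants on all 10. In the model of all 10 arrays, running in F0 and EX ancestry in descendants shared a single term. SDs taken over several groups include the differences between those groups. The additive ancestry fit was tested on simulated data, with changes larger than the members' differences, and the other fits were not. Alternatives were centring, quantile normalization, no filter, the 60th percentile, array weights, trend and robust eBayes, the mean of probe sets, the pool number as a block and each pool left out.

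The members and gene lists were chosen with earlier results of these data known. The rule named the members, the 10 genes most like them over the pools and, per list, up to 4 called genes and up to 4 further kept genes in list order. Other genes, among them most of those given for F1 SED pool 2, were chosen after their values were seen. Promoter sequences are RefSeq's, build GRCm38.p6.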

Additional observations from a re-analysis of the deposited data

Results flagged for a closer look

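Single pools stood far from the others of their set for some members. The gap from the extreme pool to its nearest neighbour was divided by the whole range of the set and compared with Dixon's 95% critical value. In F1, Ifit3 had its highest pool in F1 SED pool 2, with a ratio of 0.89 over 4 pools, and the same pool had 0.682 over all 8 descendants. In F2, Rsad2 was highest in F2 EX pool 1 with a ratio of 0.912, and Ifit3 was lowest in F2 SED pool 2 with a ratio of 0.879. Chance gives such a ratio in about 1 in 20 sets, 40 sets were examined and 4 were found. Each set of F1 or F2 holds both ancestries, so the ratio is no measure of replicate spread alone.

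Irf7 was separated by ancestry in opposite directions, with both EX pools lower than both SED pools in F1 and both higher in F2. Of all genes 16.6% were separated with EX lower in F1, and 25.8% with EX higher in F2. The F2 difference of Irf7 was small, at 0.09 with a standard error of 0.133. The difference of the effects, F2 minus F1, was 0.53 with a standard error of 0.188, and its limma adjusted p of 0.919 did not pass the threshold.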

How the results depend on the processing

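Under the alternatives that kept all pools, 0 members were called in any comparison. The pool numbers of different groups did not deviate together (r between -0.11 and 0.06 across genes) and so pair nothing. With the pool number as a replicate block 123 genes, and 0 members, were called in F0 against descendants, compared with 279 without the block. Array weights gave 38 there, and leaving out pools gave 86 (without F0 SED) to 1231 (without F0 EX). Genes called in F2 against F1 were 2 with trend and robust eBayes and 1 with array weights, compared with 0. Leaving out pools gave 0 to 1046 genes and 0 to 2 members in F1, and 0 to 143 genes for the difference of effects, the highest counts being without F1 EX pool 2. By 0.5 or more, 1193 genes were higher and 978 lower in F0 EX after quantile normalization, compared with 1835 and 644.

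Some estimates changed sign, most of them small but also Ifit3 in F1 (-0.42) and Rsad2 (-0.34) and Oasl2 (-0.28) in F0 against descendants. None of them was called, and the cause was not tested. With quantile normalization Trim30a was -0.00027 in F2 and Ifit1 0.015 in F2 against F1. Centring gave Bst2 a difference of effects of 0.025. Array weights gave Oasl2 -0.0027 for ancestry, and Usp18 -0.067 and Irf7 -0.10 for F2 against F1. Leaving out single pools gave, in F1, Bst2 -0.36 to 0.19, Ifit1 -0.20 to 0.18, Ifit3 -0.94 to 0.10, Oasl2 -0.54 to 0.18 and Rsad2 -0.42 to 0.0039. In F2 it gave Bst2 -0.24 to 0.015, Rsad2 -0.026 to 0.30 and Trim30a -0.12 to 0.15, and for the difference of effects Bst2 -0.30 to 0.25. For ancestry over both generations it gave Bst2 -0.21 to 0.010, Ifit3 -0.28 to 0.13, Oasl2 -0.11 to 0.19 and Rsad2 -0.13 to 0.084. For F2 against F1 it gave Ifit1 -0.14 to 0.098, Irf7 -0.072 to 0.11 and Usp18 -0.066 to 0.14. For F0 against descendants it gave Ifit1 -0.67 to 0.28, Oasl2 -0.61 to 0.049, Rsad2 -0.68 to 0.00015 and Trim30a -0.42 to 0.13.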
